A study of Mus musculus with 6 samples.

Results

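The SR splicing factors are the RNA-binding proteins encoded by the Srsf genes, and 10 of them were described here in CT26 tumors: Srsf1, Srsf2, Srsf3, Srsf4, Srsf5, Srsf6, Srsf7, Srsf9, Srsf10 and Srsf11. They are 10 of the 23557 genes in the deposited table, taken by symbol, and the group was chosen on the treatment comparison itself, because Srsf5 had been seen to be higher in H89-treated tumors. Their H89 against NaCl values are therefore a description, and no p is given for any of them. CT26 is a murine colorectal cancer line from Balb/c mice, the strain that carried the tumors here. Each mouse received 500000 CT26 cells under the skin, and either H89 at 10 mg/kg or NaCl alone (0 mg/kg of H89), by intraperitoneal injection 2 times a week. Tumors were removed 14 days after inoculation (day 14), 3 from NaCl mice and 3 from H89-treated mice, 1 library per tumor. All tumors came from a single cell line and hold both tumor and host cells. The study's methods describe young female mice, and the labels give neither age nor sex. H89 is a kinase inhibitor best known for protein kinase A and active on other kinases as well.

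SR proteins bind short exonic sequences through an RNA recognition motif and recruit the splicing machinery through a tail rich in arginine and serine, the RS domain. Kinases of the CLK and SRPK families phosphorylate the RS domain, which governs where in the nucleus the proteins reside and how they act. Most SR genes limit their own level through a "poison" exon or a retained intron whose inclusion sends the transcript to nonsense-mediated decay or holds it in the nucleus. In the GENCODE M21 annotation of GRCm38, the 10 genes have 85 transcripts, of which 29 are protein coding, 15 are marked for nonsense-mediated decay and 26 as retaining an intron. At least 1 decay transcript is annotated for 9 of the 10 genes, the exception being Srsf10, and at least 1 retained intron transcript for 8, the exceptions being Srsf9 and Srsf10. The deposited values are summed per gene, so productive and unproductive transcripts cannot be told apart in them.

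The promoter sequences of 3 members are shown because they stand at different places in the comparison: Srsf5 had the largest positive change, Srsf6 is a relative of it with the same domain layout, and Srsf9 was the member with a negative change. Each is the 250 bases before the RefSeq start of the gene in GRCm38.p6, on the plus strand, at chr12:80945249-80945498 for Srsf5, chr2:162931258-162931507 for Srsf6 and chr5:115326927-115327176 for Srsf9. Capitals mark the motif TGACG on either strand, the core of the cAMP response element that CREB, a target of protein kinase A, binds.
Srsf5: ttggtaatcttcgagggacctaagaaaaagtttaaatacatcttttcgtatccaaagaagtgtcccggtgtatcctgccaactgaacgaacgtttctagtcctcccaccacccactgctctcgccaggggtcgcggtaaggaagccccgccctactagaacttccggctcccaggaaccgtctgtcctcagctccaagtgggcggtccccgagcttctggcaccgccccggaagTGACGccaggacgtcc
Srsf6: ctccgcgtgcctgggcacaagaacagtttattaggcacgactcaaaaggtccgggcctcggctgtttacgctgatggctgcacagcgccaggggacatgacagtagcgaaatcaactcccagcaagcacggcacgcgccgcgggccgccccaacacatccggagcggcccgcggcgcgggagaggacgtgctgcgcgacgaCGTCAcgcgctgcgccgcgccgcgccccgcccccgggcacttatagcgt
Srsf9: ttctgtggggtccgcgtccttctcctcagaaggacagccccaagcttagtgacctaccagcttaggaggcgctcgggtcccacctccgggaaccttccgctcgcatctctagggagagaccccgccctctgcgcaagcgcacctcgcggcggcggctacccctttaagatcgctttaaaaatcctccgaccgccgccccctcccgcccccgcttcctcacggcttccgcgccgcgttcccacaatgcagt
All 10 members had a promoter entry of 300 bases, which also covers 50 bases after the start. The motif TGACG (read as CGTCA on the other strand) was found for 7 of the 10, the exceptions being Srsf4, Srsf7 and Srsf9, and for 23.0% of the 27025 genes with an entry. The full palindromic site, TGACG directly followed by TCA, which contains the shorter motif on both strands, was found for 0 of the 10 members and for 2.03% of all genes. Among the genes tested here, to which all members belong, the shares were higher, 34.3% for the shorter motif and 3.45% for the full site. These shares rest on the 10375 of 13118 tested genes with an entry and do not cover the other tested genes, and nothing is read from them. These are matches of letters, and binding was not measured.

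The total count per tumor lay between 27067300 and 31958800, and the 10 members had at least 1916 counts each in every tumor. Levels are given as CPM, the count of a gene scaled to a fixed library total, with library sizes scaled by edgeR's TMM factors, which lay between 0.956 and 1.06. Several libraries stood apart in other genes. Counts of 9 mitochondrially encoded genes made up 4.72% to 5.93% of the NaCl libraries but 10.7% and 9.63% of H89-treated tumors 1 and 2, against 4.78% in H89-treated tumor 3. A summed list of 8 leukocyte markers ran from 96.7 to 138 CPM in NaCl and from 132 to 337 CPM in H89-treated tumors, the highest value being that of tumor 3. The 5 fibroblast markers summed to 2172 to 2438 CPM and 2450 to 3138 CPM. Of 7 keratinocyte markers, Krt1 and Ivl were at 0 in every tumor and Cdsn made up most of the sum. That sum was 46.0 to 73.2 CPM in NaCl and 14.0 to 17.9 CPM in H89-treated tumors. Krt10, the only other marker of this list that passed the filter, had a log2 fold change of 0.31, against -2.15 for Cdsn. The sum of 6 skeletal muscle markers was 19.2 CPM in H89-treated tumor 1 and 1.40 to 2.74 CPM in the others. The 4 endothelial markers summed to 82.1 to 139 CPM in NaCl and 68.6 to 105 CPM in H89-treated tumors, and the 7 proliferation markers to 1364 to 1518 CPM and 1455 to 1594 CPM. Cirbp and Rbm3, which are induced by cold, summed to 622 to 646 CPM and 540 to 621 CPM. Each of these genes alone overlapped between the groups. The 7 immediate early genes summed to 823 to 872 CPM and 660 to 864 CPM. The 8 markers of colon epithelium summed to 15.1 to 26.6 CPM in NaCl and 11.7 to 16.1 CPM in H89-treated tumors, with overlap. Krt18 was measured at 13.2 to 23.6 CPM in NaCl and 7.76 to 8.31 CPM in H89-treated tumors, without overlap (log2 fold change -1.04). The other tested markers went the other way, with log2 fold changes of 1.03 for Krt8, 2.56 for Krt19 and 0.05 for Cdh1. Krt8 and Krt19 stayed at or below 2.53 CPM, with the highest value of each in H89-treated tumor 1. Epcam, Cdx2, Vil1 and Lgr5 were below the filter on low counts. The part of these differences in the SR values was not tested, and in whole tumors fewer cells of a type and less RNA per cell cannot be told apart.

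Srsf5 was the SR gene with the largest log2 difference between the groups. Srsf5 (ENSMUSG00000021134, chromosome 12 from 80945504 to 80950507 in GRCm38) encodes an SR protein with a pair of RNA recognition motifs and was first known as a transcript induced in regenerating liver. Its level was 143, 145 and 147 CPM in NaCl tumors 1 to 3 and 230, 241 and 221 CPM in H89-treated tumors 1 to 3. The NaCl tumors were nearly alike (145 ± 2.06 CPM, SD, n = 3), the H89-treated tumors varied more (231 ± 10.3 CPM, SD, n = 3), and the lowest H89 value lay 74.1 CPM above the highest NaCl value. In edgeR's quasi-likelihood fit over the 13118 genes whose mean reached 0.5 CPM, the log2 fold change was 0.67, with a standard error (SE) of 0.08, a ratio of 1.59. Of all genes tested, 7.07% had a higher log2 fold change than Srsf5. The estimated counts of Srsf5 lay up to 0.266 from a whole number, which means that some reads were divided between features, and no exon of another gene overlaps it in GENCODE M21.

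**Figure D1:**
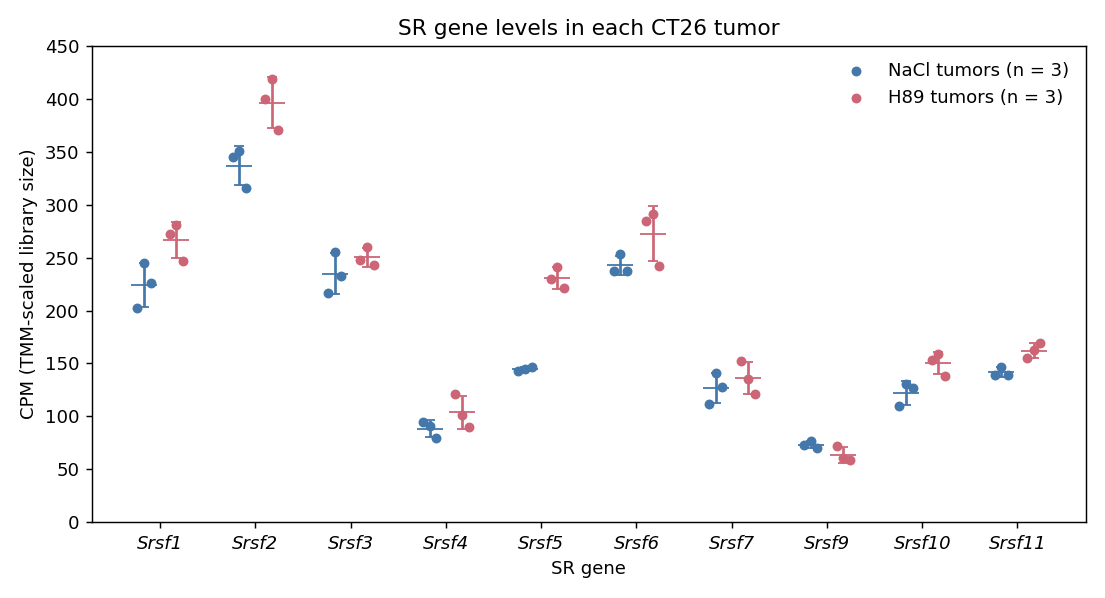
CPM on TMM-scaled library sizes (y axis) of each SR gene (x axis) in the 3 NaCl tumors (blue) and the 3 H89-treated tumors (red), with a point per tumor in the order of the tumor numbers and bars for the mean ± SD. Srsf5 sits at 143 to 147 CPM in NaCl and 221 to 241 CPM in H89-treated tumors, and Srsf9 lies lowest of all members in both groups.

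Across the 10 members, 1 was called higher in H89-treated tumors at a Benjamini-Hochberg (BH) adjusted p under 0.05, which was Srsf5, and 0 were called lower by edgeR or by DESeq2's Wald test. Over all genes tested, 0.861% were called higher and 0.724% lower by the same rule. At an unadjusted p under 0.05, 5 members were higher (Srsf1, Srsf2, Srsf5, Srsf10 and Srsf11) and 0 lower, where 13.1% of all genes were higher and 11.9% lower. The same 5 members had all 3 H89 values above all 3 NaCl values, and 0 had them all below, against 15.2% and 15.5% of all genes. Nothing is read from these counts: the group was chosen on this comparison, so the call of Srsf5 restates that choice. The median log2 fold change was 0.21 over the 10 members and 0.19 without Srsf5, and 0.004 over all genes tested. With CPM on the plain total count, an alternative added after the data had been seen, Srsf4 and Srsf6 also had all H89 values above the NaCl values, so that 7 members did not overlap. On that scale this held for 2688 of all 13118 genes tested, against 1995 with TMM. With quantile normalization the number was also 7 among the members, and 1537 among all genes. On the total count scale the median log2 fold change was 0.28 over the members and 0.08 over all genes. Srsf5 was not called with the replicate number as a block, nor in any of the 6 fits without 1 tumor, in which at most 11 of all genes were called higher; its log2 fold change there lay between 0.64 and 0.70.

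**Figure D2:**
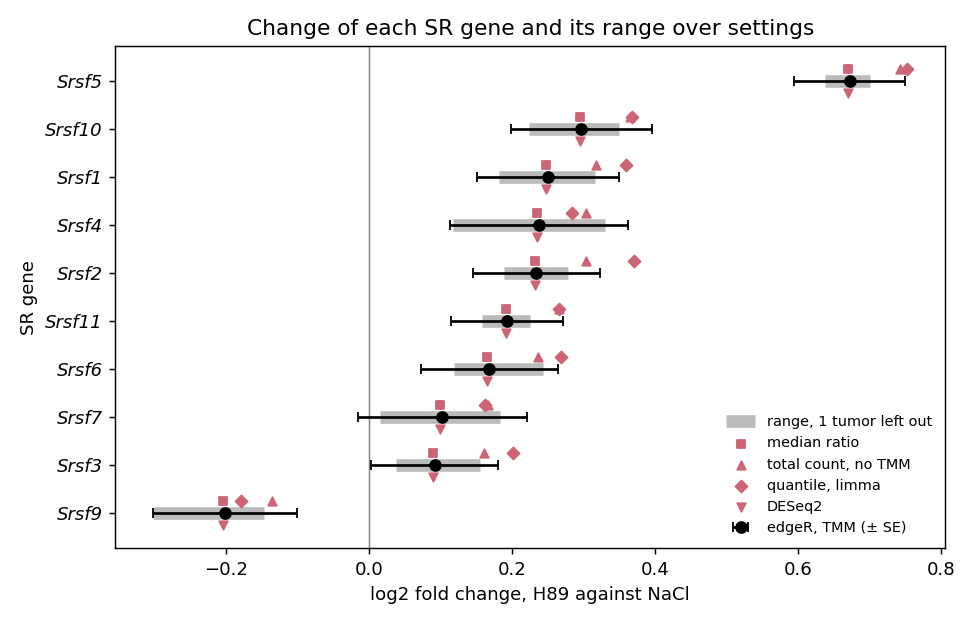
Log2 fold change of each SR gene, H89 against NaCl (x axis), for the edgeR fit with TMM (black points, bars for the standard error), 4 other scalings or tools (red symbols) and the range over the 6 fits without 1 tumor (grey bars). Srsf5 lies at 0.67, 8 members lie between 0.09 and 0.30, and Srsf9 lies at -0.20, with the sign of each member the same in every setting shown.

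Srsf1, Srsf2, Srsf10 and Srsf11 were the other members whose groups did not overlap. Srsf1 (chromosome 11 from 88047373 to 88053755), the founding SR protein, which binds exonic enhancers and also acts in translation, had 203, 245 and 226 CPM in NaCl tumors 1 to 3 and 272, 281 and 247 CPM in H89-treated tumors 1 to 3. The gap between the groups was narrow, 2.63 CPM between NaCl tumor 2 and H89-treated tumor 3, and the log2 fold change was 0.25 (SE 0.10). Srsf2 (chromosome 11 from 116849901 to 116853094), known as a marker of nuclear speckles, was the most abundant member, with 345, 350 and 316 CPM in NaCl and 400, 419 and 370 CPM in H89-treated tumors 1 to 3. NaCl tumor 3 was the lowest and H89-treated tumor 2 the highest, and the log2 fold change was 0.23 (SE 0.09). Exons of Srsf2 overlap Mettl23 and Mfsd11 on the other strand, and those of Srsf1 overlap Gm11508. Strand use in the counting is not given in the sources used here, so reads of such pairs cannot be told apart. The estimated counts of Srsf1 and Srsf2 lay up to 0.447 and 0.437 from a whole number.

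Srsf10 (chromosome 4 from 135855747 to 135869908) encodes a member that represses splicing when it loses its phosphates, as in heat shock and mitosis. It had 109, 130 and 127 CPM in NaCl tumors 1 to 3 and 153, 159 and 139 CPM in H89-treated tumors 1 to 3 (log2 fold change 0.30, SE 0.10). After Srsf5 this was the largest change among the members. Srsf11 (chromosome 3 from 158010473 to 158036639) encodes an SR protein that binds the U2AF splicing factor. Its values were 140, 147 and 139 CPM in NaCl and 155, 162 and 169 CPM in H89-treated tumors (log2 fold change 0.19, SE 0.08). H89-treated tumor 3 was the highest for Srsf11 but the lowest of its group for each of the other 9 members.

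The groups overlapped for Srsf3, Srsf4, Srsf6, Srsf7 and Srsf9, which are the members whose H89 values did not all lie above the NaCl values on this scale. Srsf4 and Srsf6 share with Srsf5 the pair of RNA recognition motifs. Srsf4 (chromosome 4 from 131873617 to 131901706) had 95.0, 90.5 and 79.3 CPM in NaCl tumors and 121, 102 and 89.9 CPM in H89-treated tumors (log2 fold change 0.24, SE 0.12). Srsf6 (chromosome 2 from 162931528 to 162937121) had 237, 253 and 237 CPM and 284, 291 and 243 CPM in the same order (log2 fold change 0.17, SE 0.10). In both genes it was H89-treated tumor 3 that lay within the NaCl range. Exons of Srsf4 overlap Gm12992 on the other strand.

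Srsf3 and Srsf7 are related small SR proteins that also serve as adaptors for the export of mRNA from the nucleus. Srsf3 (chromosome 17 from 29032628 to 29043373) ranged from 217 to 255 CPM in NaCl and from 243 to 260 CPM in H89-treated tumors (log2 fold change 0.09, SE 0.09). Srsf7 (chromosome 17 from 80200080 to 80207307) ranged from 112 to 141 CPM and from 121 to 152 CPM (log2 fold change 0.10, SE 0.12). For both, the difference between the groups was about the size of its standard error. A listed pseudogene, Srsf3-ps, had at most 2 counts in any tumor and was not tested.

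Srsf9 was the member with a negative log2 fold change. It lies on chromosome 5 from 115327177 to 115333080 and encodes a close relative of Srsf1 with a short RS domain. Its level was 72.8, 77.0 and 70.1 CPM in NaCl tumors 1 to 3 and 72.3, 60.2 and 58.7 CPM in H89-treated tumors 1 to 3. H89-treated tumor 1 lay within the NaCl range and the other H89-treated tumors below it, and the log2 fold change was -0.20 (SE 0.10), without a call. Without H89-treated tumor 1, or without NaCl tumor 3, the groups did not overlap, and the log2 fold change lay between -0.30 and -0.15 over the fits without 1 tumor. In the same fits, 3112 and 2624 of the 13118 genes tested had all H89 values below the NaCl values. Estimated counts of Srsf9 were whole within 0.0039, and no other annotated gene overlaps its exons.

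The composition of the SR pool was compared within each tumor. The 10 genes together made up 0.160%, 0.182% and 0.167% of all counts in NaCl tumors 1 to 3 and 0.205%, 0.217% and 0.202% in H89-treated tumors 1 to 3. These shares are taken of the library total and depend on the other genes in it. No scaling between libraries enters the shares within the summed SR counts or the ratios between members. Of the summed SR counts, Srsf5 took 8.52%, 7.89% and 8.63% in NaCl and 11.0%, 11.4% and 11.6% in H89-treated tumors. Srsf9 took 4.35%, 4.20% and 4.12% in NaCl and 3.47%, 2.86% and 3.08% in H89-treated tumors, so that neither gene's share overlapped between the groups. The shares of Srsf3 and Srsf6 were also lower in every H89-treated tumor, at 11.9% to 12.8% against 13.0% to 13.9% and at 12.8% to 13.79% against 13.82% to 14.2%. Shares add up to the whole and so are not independent of each other. A higher share of Srsf5, on which the group was chosen, lowers the shares of the other members. On the CPM scale the log2 fold changes of Srsf3 and Srsf6 were positive, at 0.09 and 0.17, so nothing is read from their lower shares. The mean shares of Srsf1, Srsf2, Srsf4 and Srsf10 were slightly higher in H89-treated tumors, with overlap between the groups. Srsf2, the most abundant member, took 18.6% to 20.6% in NaCl and 19.2% to 19.8% in H89-treated tumors. The ratio of Srsf5 to Srsf9 counts was 1.96, 1.88 and 2.09 in NaCl tumors and 3.17, 4.01 and 3.77 in H89-treated tumors. These members had the highest and the lowest log2 fold change in this same comparison, so the difference in their ratio follows from that choice. For Srsf5 to Srsf6 the ratio was 0.597 ± 0.0243 and 0.849 ± 0.0543 (SD, n = 3 each).

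**Figure D3:**
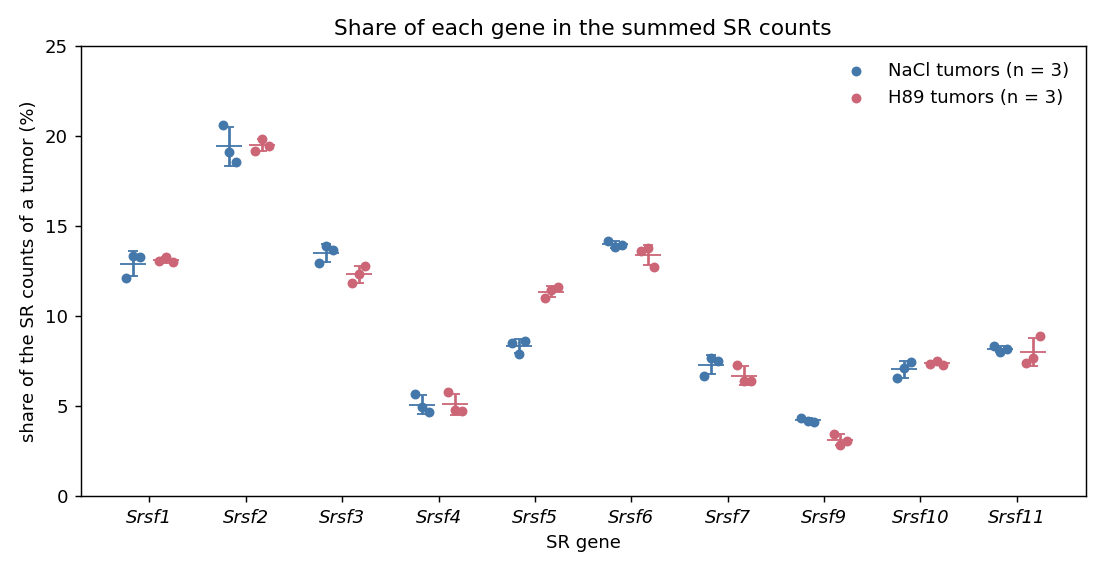
Share of each SR gene in the summed counts of the 10 genes of the same tumor, in percent (y axis), for the 3 NaCl tumors (blue) and the 3 H89-treated tumors (red), with bars for the mean ± SD. Srsf5 moves from 7.89% to 8.63% up to 11.0% to 11.6%, and Srsf9 from 4.12% to 4.35% down to 2.86% to 3.47%.

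Between genes, levels were compared per kilobase of the longest annotated transcript. In NaCl tumors the order was Srsf2, Srsf6, Srsf3, Srsf7, Srsf9, Srsf11, Srsf1, Srsf5, Srsf10 and Srsf4. Srsf2 stood apart, with 177 ± 9.89 CPM per kilobase (SD, n = 3), from Srsf6 at 68.8 ± 2.65, and Srsf4 was lowest at 28.5 ± 2.61. Neighbours whose ranges overlapped in NaCl tumors were Srsf3 with Srsf7, Srsf7 with Srsf9, Srsf11 with Srsf1, Srsf1 with Srsf5, and Srsf10 with Srsf4. Srsf5 was in place 8 in NaCl tumors, at 41.6 ± 0.592 CPM per kilobase, and in place 3 in H89-treated tumors, at 66.2 ± 2.97 (SD, n = 3 each), where its range overlapped those of both neighbours, Srsf6 and Srsf3. With the mean length of the coding transcripts in place of the longest, Srsf5 was in place 3 in NaCl and in place 2 in H89-treated tumors, so its place depends on the length that is used, while Srsf2 came first and Srsf4 last in both groups either way.

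**Figure D4:**
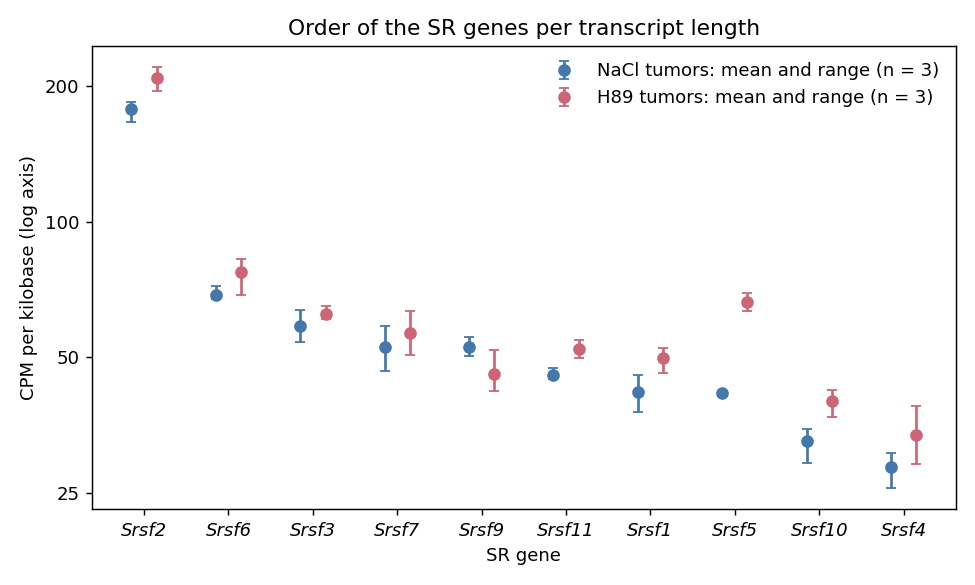
CPM per kilobase of the longest GENCODE M21 transcript on a log axis (y axis) for the SR genes in the order of their NaCl means (x axis), with points for the mean and bars for the range of 3 tumors, NaCl in blue and H89-treated in red. Srsf2 is highest at 177 in NaCl and 209 in H89-treated tumors, and Srsf5 passes from 41.6 to 66.2.

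Proteins other than the 10 members that carry an RS domain, or pair with SR proteins, were taken as a list of 27 genes, of which 26 passed the filter. Of these, 3 were called higher and 1 lower, where 0.861% and 0.724% of all genes were. At an unadjusted p under 0.05, 11 were higher and 1 lower, against 13.1% and 11.9% of all genes. In 12 genes all H89 values lay above the NaCl values and in 1 all lay below, against 15.2% and 15.5% of all genes. The log2 fold change was positive in 21 and negative in 5, with a median of 0.12 against 0.004 over all genes. The gene left out by the filter, Srsf12, had at most 5 counts in any tumor. This list and those below were chosen with earlier results of these data known, so their counts and p values are a description. Pnn, a nuclear speckle protein, had 59.2, 65.9 and 60.0 CPM in NaCl and 99.6, 88.3 and 83.7 CPM in H89-treated tumors (log2 fold change 0.55, SE 0.09, BH-adjusted p = 0.0415 by edgeR). Rsrp1, a small arginine and serine rich protein, went from 151 ± 22.9 to 241 ± 11.0 CPM (SD, 3 tumors a group; log2 fold change 0.68, SE 0.12, BH-adjusted p = 0.0443 by edgeR). Nktr, a cyclophilin with an RS domain, went from 74.5 ± 2.79 to 106 ± 9.49 CPM (SD, 3 tumors a group; log2 fold change 0.50, SE 0.09, BH-adjusted p = 0.0443 by edgeR). Rnps1, which joins Pnn in a complex bound to the exon junction complex, fell from 92.2 ± 6.09 to 68.9 ± 1.81 CPM (SD, 3 tumors a group; log2 fold change -0.42, SE 0.08, BH-adjusted p = 0.0492 by edgeR). In these 4 genes the groups did not overlap. None of the 4 was called in any fit without 1 tumor or with the replicate number as a block, and Rnps1 was also not called with total-count CPM, quantile normalization or the filter of 5 CPM.

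Among the 20 tested kinases, phosphatases and transport factors of SR proteins, 2 were called higher and 0 lower, where 0.861% and 0.724% of all genes were. At an unadjusted p under 0.05, 5 were higher and 2 lower, against 13.1% and 11.9% of all genes, and the median log2 fold change was -0.004. DESeq2's Wald test called 4 higher and 2 lower, and 698 higher and 695 lower of all 13118 genes. Both genes called by edgeR were CLK kinases. Among the other listed CLK kinases, Clk2 had a log2 fold change of 0.46 (SE 0.09) and Clk3 of -0.005 (SE 0.11), and neither was called in this fit. Clk1 had 70.9, 71.9 and 67.8 CPM in NaCl and 121, 121 and 118 CPM in H89-treated tumors (log2 fold change 0.77, SE 0.07), and Clk4 had 22.8, 23.0 and 24.5 CPM and 40.4, 41.3 and 38.9 CPM (log2 fold change 0.78, SE 0.08). For each of them edgeR gave a BH-adjusted p = 0.0288, and in neither gene did the groups overlap. The number called in this list was 0 with the replicate number as a block and in 5 of the 6 fits without 1 tumor, and 1 without H89-treated tumor 3. Srpk3 did not pass the filter. Of 15 factors of nonsense-mediated decay and the exon junction complex, 0 were called in either direction in edgeR's test, against the same 0.861% and 0.724% of all genes. At an unadjusted p under 0.05, 2 were higher and 3 lower, against 13.1% and 11.9% of all genes, and DESeq2's Wald test called 1 higher and 2 lower. The median log2 fold change of this list was -0.09. The smallest p values there were those of Magohb, with a log2 fold change of 0.59 (SE 0.12, BH-adjusted p = 0.0529 by edgeR), and Upf3a, at -0.32 (SE 0.08, BH-adjusted p = 0.0803 by edgeR).

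**Figure D5:**
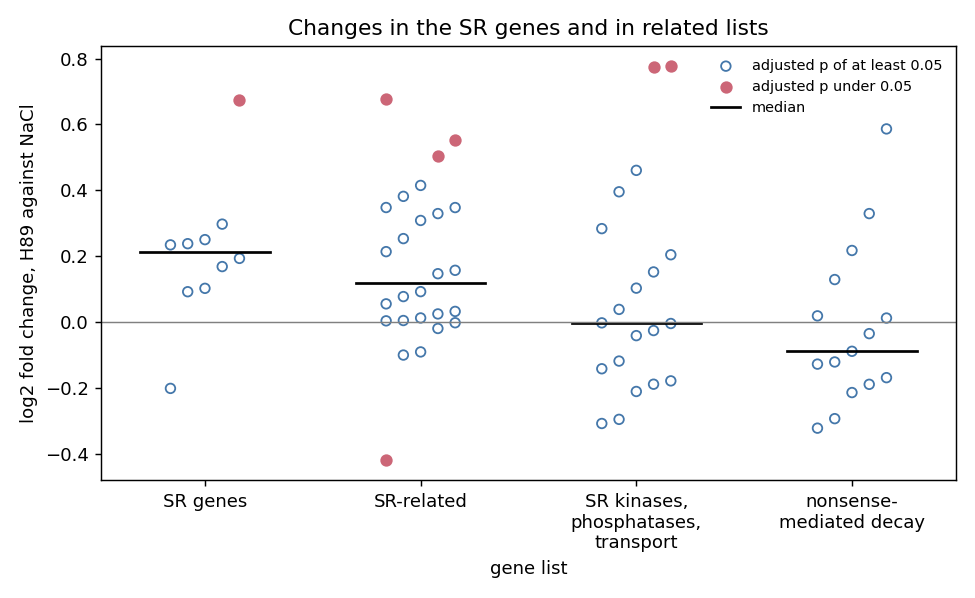
Log2 fold change, H89 against NaCl (y axis), of the 10 SR genes and of every tested gene of 3 related lists (x axis), filled where edgeR's adjusted p was under 0.05, with a line at the median. The medians are 0.21, 0.12, -0.004 and -0.09 from left to right.

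The genes whose profile over the 6 tumors was most like that of Srsf5 were sought among all genes tested, by the root mean square difference of the centred log2(CPM + 0.5) values. They were Ankrd16 (0.03), Clk4 (0.05), Pnisr (0.05), Zfp182 (0.06) and Rbm4b (0.06). Ankrd16, an ankyrin repeat protein, had 19.4, 20.8 and 20.7 CPM in NaCl and 32.5, 33.8 and 29.9 CPM in H89-treated tumors. Pnisr, an RS domain protein that binds Pnn, had 55.6, 60.3 and 57.1 CPM and 95.1, 92.3 and 92.8 CPM. With each gene divided by its own SD, 2 of these 5 genes, Ankrd16 and Clk4, were again among the closest 5. The nearest SR gene was Srsf10, at a difference of 0.20 and place 775 of 13117, and the farthest was Srsf9, at 0.45 and place 9774. The profiles share the same 6 libraries, and the likeness is a description over these tumors alone. Because Srsf5 was chosen for its difference between the groups, genes close to it by this measure have a similar difference. Their values follow from that choice, and nothing is read from them.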

How the data were processed

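RNA of 6 CT26 tumors was sequenced on a BGISEQ-500. The authors deposited 1 table of estimated counts per gene, although its name gives another unit. The submitters' processing notes name kallisto, DESeq2 and GRCm38 without role or version; the annotation, filters and use of strand are not given in the sources used here. Groups came from the labels, and the tumors are from separate mice, 3 per group. The 10 members and all gene lists were chosen with earlier results of these data known.

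Values were rounded to integers, and the 13118 of 23557 genes whose mean reached 0.5 CPM were kept. H89 was compared with NaCl by edgeR 4.0.16 in R 4.3.3 (TMM, glmQLFit and glmQLFTest), with Benjamini-Hochberg adjustment over the 13118 genes and a threshold of 0.05. Standard errors were derived from the fit, as the size of the log2 fold change over the root of F. The steps were tested on simulated data. Total counts of 27067300 to 31958800 per tumor limit precision by counting error only, and the spread between tumors is wider: replicates differed by more than sampling noise, with a chi-square per degree of freedom of 25.3 to 101.

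The text names the 10 members and other Srsf symbols, up to 4 called genes per list and direction by p (the 2 with the smallest p where none was called), and the 5 genes closest to Srsf5. Clk2 and Clk3 are named beside the called CLK kinases. Alternatives were median ratio and quantile normalization (limma 3.58.1), DESeq2 1.42.0, no filter on low counts, a filter of 5 CPM, the replicate number as a block, each tumor left out, coding transcript lengths and z scores. CPM on the total count was added after the data had been seen. Gene positions and transcript lengths are from GENCODE M21 (23007 of 23557 symbols matched), and promoters from RefSeq for GRCm38.p6 (10 of 10 members matched). Protein sequences were not used here, so a planned comparison of them was left out, and nuclear RNAs listed as markers were not analysed here.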

Additional observations from a re-analysis of the deposited data

How the results depend on the processing

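No SR gene changed the sign of its log2 fold change in any of the 7 alternatives or the 6 fits without 1 tumor. Srsf5 lay between 0.66 and 0.75 over the alternatives and between 0.64 and 0.70 without 1 tumor. With the replicate number as a block, a pairing that the data did not bear out (correlations of same-numbered tumors 0.16, 0.06 and -0.03, and not every tumor closest to its own number), 0 SR genes were called, 0 genes of all tested in either direction, and 0 of the SR-related and the kinase lists; the log2 fold change of Srsf5 was 0.67. Without 1 tumor, 0 to 0 SR genes were called higher. At an unadjusted p under 0.05, 1 to 6 were higher, and the share of all genes at that threshold was not counted in these fits. In the higher direction 5 to 7 SR genes did not overlap, against 2492 to 2934 of the 13118 genes tested. In the lower direction 0 to 1 SR genes did not overlap, against 2437 to 3112 of the same genes. Of all genes, 0 to 11 were called higher and 0 to 2 lower. In the lists, 0 to 0 SR-related genes were called in either direction, and 0 to 1 of the kinase list higher. DESeq2 called 698 of all genes higher and 695 lower, 9 SR-related genes higher, 4 of the kinase list higher and 2 lower, and 1 of the decay list higher and 2 lower. Quantile normalization gave 55 higher and 26 lower of all genes and 0 SR-related genes lower. CPM on the total count, added after the data had been seen, gave 33 lower of all genes and 0 SR-related genes lower. Without a filter 167 of all genes were called lower and 1 of the decay list higher, and with the filter of 5 CPM 0 SR-related genes lower and 1 of the decay list higher. The cause of these differences was not tested. With 3 tumors per group, members with changes near their standard error (Srsf3, Srsf7) were not resolved, and no member other than Srsf5 was called in any setting. Isoforms were not measured, and genes below the filter (Srsf12, Srsf3-ps and Srpk3 among those named) were not tested.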
